A study of Homo sapiens with 32 samples.

Results

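Granzyme A and the cytotoxic granule genes are 10 genes followed here by symbol among the 23073 genes of a table of expression in leukaemia cells: the granzymes GZMA, GZMB, GZMH, GZMK and GZMM, the pore and membrane proteins PRF1, NKG7 and GNLY, the cystatin CST7 and the proteoglycan SRGN. The group was selected on measured values, the higher GZMA level with KDM1A inhibitors than without, so differences between those libraries are given for its members as descriptions, with no test. The RNA came from 32 cultures of SKNO-1 and Kasumi-1, established lines from human acute myeloid leukaemia with the fusion gene RUNX1-RUNX1T1. In each line, the 4 agents were RN-1 at 1 µM, an irreversible inhibitor of the histone demethylase KDM1A, GSK690 at 1 µM, a reversible inhibitor, GSK690* at 1 µM, an isomer of GSK690 that the study calls inactive, and the solvent DMSO at 0.1%. Each agent was given for 24 and for 72 h, with 2 biological replicates in each of the 16 groups. RN-1 and GSK690 libraries are called inhibitor libraries below, and GSK690* and DMSO libraries control libraries, which gives 4 of each in a line at a time. SKNO-1 grew with 10% fetal calf serum and 10 ng/mL GM-CSF and Kasumi-1 with 20% serum, so the line and its medium cannot be told apart. For the later SKNO-1 libraries, titled 72 h, the protocol states 4 days of treatment.

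Cytotoxic lymphocytes, T cells and natural killer cells, store granzymes and perforin in secretory granules and release them against a target cell. Perforin opens the membrane, granzymes are serine proteases that enter through it, and serglycin, the product of SRGN, holds the cargo on its glycosaminoglycan chains inside the granule. Cathepsin C removes the propeptide of granzymes, and cystatin F, the product of CST7, inhibits cathepsin C. Myeloid cells use serglycin and cathepsin C for their own granule proteases, such as neutrophil elastase and mast cell tryptases.

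GZMA, which codes for a tryptase-like granzyme, was the only granzyme to reach 1 FPKM. It lay at 5.25 to 13.5 FPKM in the SKNO-1 inhibitor libraries and 0.851 to 2.02 FPKM in the Kasumi-1 inhibitor libraries. In all control libraries it was at or below 0.672 FPKM. Control means of GZMA and GZMM were 0.325 and 0.0620 FPKM in SKNO-1 at 24 h and 0.145 and 0.141 FPKM at 72 h. In Kasumi-1 they were 0.0442 and 0.0762 FPKM at 24 h and 0.0679 and 0.0641 FPKM at 72 h. FPKM is fragments scaled by transcript length and library size, so levels can be compared between genes. GZMH and GZMK were listed at 0 in all 32 libraries, and PRF1, which codes for perforin, did not pass 0.0295 FPKM. NKG7 was higher in the Kasumi-1 inhibitor libraries at 72 h, SRGN was lower in the inhibitor libraries of both lines at 72 h, and CST7 differed mainly between the lines. Of the 10 genes, 4 (GZMA, NKG7, CST7 and SRGN) had at least 1 FPKM in at least 2 libraries and entered the fits, among 11890 genes. GZMA passed that filter only through inhibitor libraries, since all 13 of its libraries at 1 FPKM or more held RN-1 or GSK690.

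**Figure D1:**
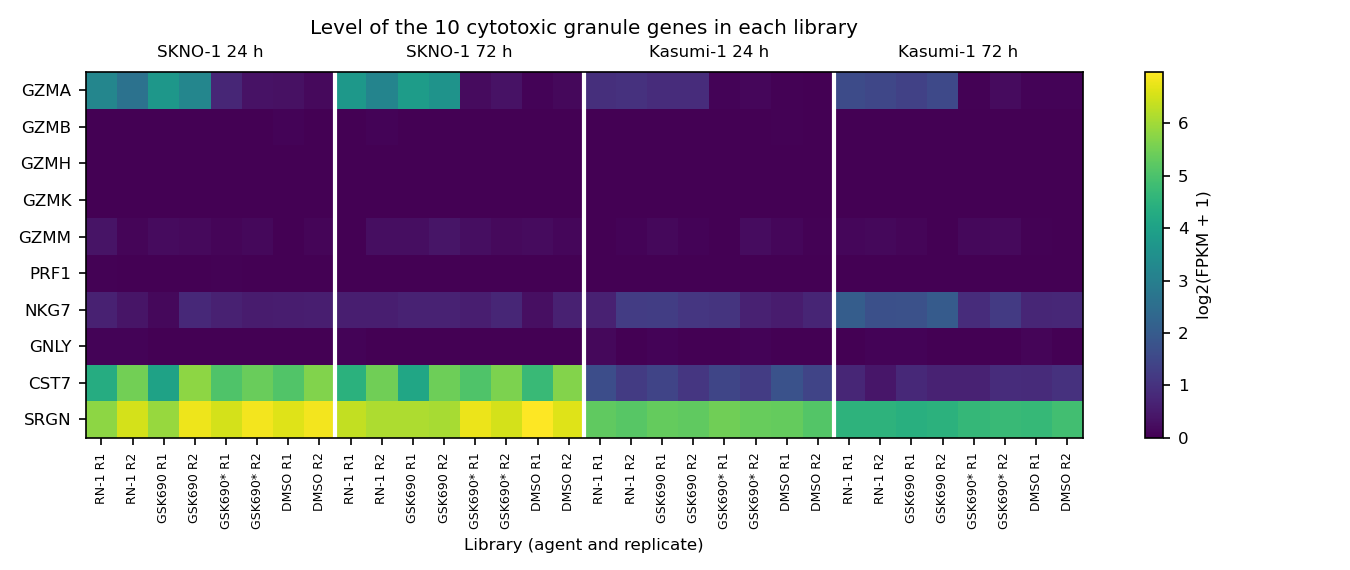
Level of each of the 10 genes (rows) in each of the 32 libraries (columns) as log2(FPKM + 1), with SKNO-1 left of Kasumi-1 and, within each line and time, RN-1, GSK690, GSK690* and DMSO from left to right. GZMA is bright in the inhibitor libraries of SKNO-1 and fainter in those of Kasumi-1, CST7 and SRGN are brighter in SKNO-1, and GZMB, GZMH, GZMK, PRF1 and GNLY are dark throughout.

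RefSeq promoters (GRCh38.p14) were found for 6 of the 10 genes. The 250 bases before the start are shown for GZMA and NKG7, which were higher with the inhibitors in at least 1 line, and for GZMB, which was not. Capitals mark AATC, the core of the motif of GFI1, a repressor that recruits KDM1A, TGTGGT, the RUNX motif, and GAGGAA, the core of the motif of the myeloid factor SPI1, on either strand. CACGTG, the E-box, was searched too and is in none of the 3. GZMA is at chr5:55102396-55102645 on the plus strand, NKG7 at chr19:51372655-51372904 on the minus strand and GZMB at chr14:24634191-24634440 on the minus strand, each written 5′ to 3′ along its gene.
GZMA: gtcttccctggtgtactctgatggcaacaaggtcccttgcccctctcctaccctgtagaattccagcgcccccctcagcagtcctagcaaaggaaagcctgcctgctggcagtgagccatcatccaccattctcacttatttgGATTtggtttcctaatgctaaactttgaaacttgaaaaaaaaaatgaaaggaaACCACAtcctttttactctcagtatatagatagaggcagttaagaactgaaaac
NKG7: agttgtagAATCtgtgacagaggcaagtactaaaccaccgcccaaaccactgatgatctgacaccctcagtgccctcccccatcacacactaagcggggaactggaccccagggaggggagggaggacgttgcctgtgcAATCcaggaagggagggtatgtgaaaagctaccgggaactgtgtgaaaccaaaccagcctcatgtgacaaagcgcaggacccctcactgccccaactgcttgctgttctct
GZMB: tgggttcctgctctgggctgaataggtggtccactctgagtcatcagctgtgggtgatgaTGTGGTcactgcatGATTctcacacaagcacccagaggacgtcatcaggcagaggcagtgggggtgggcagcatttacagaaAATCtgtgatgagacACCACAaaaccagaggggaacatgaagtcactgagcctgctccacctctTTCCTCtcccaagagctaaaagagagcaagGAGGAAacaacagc
The GZMA stretch holds 1 AATC, on the reverse strand at base -107 from the start, and 1 TGTGGT, on the reverse strand at base -54. NKG7 holds 2 AATC and no other motif, and GZMB holds 2 AATC, 2 TGTGGT and 2 GAGGAA. In windows of 300 bases (the 250 shown and the 50 after the start) GZMA has 3 AATC, 1 TGTGGT and 1 GAGGAA, NKG7 2 AATC, and GZMB 3 AATC, 2 TGTGGT and 2 GAGGAA. In the same windows AATC is in 69% of the 35116 promoters of the table, TGTGGT in 13.1%, GAGGAA in 27.9% and CACGTG in 7.26%. AATC is thus in most promoters, and none of these matches was tested as a binding site.

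GZMA lies on chromosome 5 (hg19 chr5:54398475-54406080). In SKNO-1 at 24 h it had 8.15 and 5.25 FPKM with RN-1 and 12.0 and 8.25 FPKM with GSK690, against 0.672 and 0.258 FPKM with GSK690* and 0.243 and 0.127 FPKM with DMSO. In SKNO-1 at 72 h it had 12.2 and 7.81 FPKM with RN-1 and 13.5 and 10.9 FPKM with GSK690, against 0.157 and 0.272 FPKM with GSK690* and 0.0450 and 0.106 FPKM with DMSO. All inhibitor libraries lay above all control libraries at both times, and the highest control value was the first GSK690* culture at 24 h. The mean was 8.41 ± 2.76 FPKM in inhibitor libraries and 0.325 ± 0.239 FPKM in control libraries at 24 h (SD, n = 4 each), a ratio of means of 25.9. At 72 h the mean was 11.1 ± 2.45 FPKM in inhibitor libraries and 0.145 ± 0.0964 FPKM in control libraries (SD, n = 4 each), a ratio of 76.7. In these cultures more RNA per cell and more cells with the RNA cannot be told apart.

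In Kasumi-1 the levels were lower but ordered the same way. At 24 h GZMA had 0.908 and 1.01 FPKM with RN-1 and 0.851 FPKM in both GSK690 libraries, against 0.0530 and 0.0889 FPKM with GSK690* and 0.0347 FPKM and a listed 0 with DMSO. At 72 h it had 2.02 and 1.78 FPKM with RN-1 and 1.56 and 1.89 FPKM with GSK690, against 0.0365 and 0.144 FPKM with GSK690* and 0.0486 and 0.0423 FPKM with DMSO. The groups did not overlap at either time, and the spread among inhibitor libraries was small beside the distance to the controls. The mean was 0.906 ± 0.0760 FPKM in inhibitor libraries and 0.0442 ± 0.0371 FPKM in control libraries at 24 h (SD, n = 4 each). At 72 h the mean was 1.81 ± 0.193 FPKM in inhibitor libraries and 0.0679 ± 0.0511 FPKM in control libraries (SD, n = 4 each), a ratio of 26.7, and no ratio is given at 24 h because a control library was at 0.

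**Figure D2:**
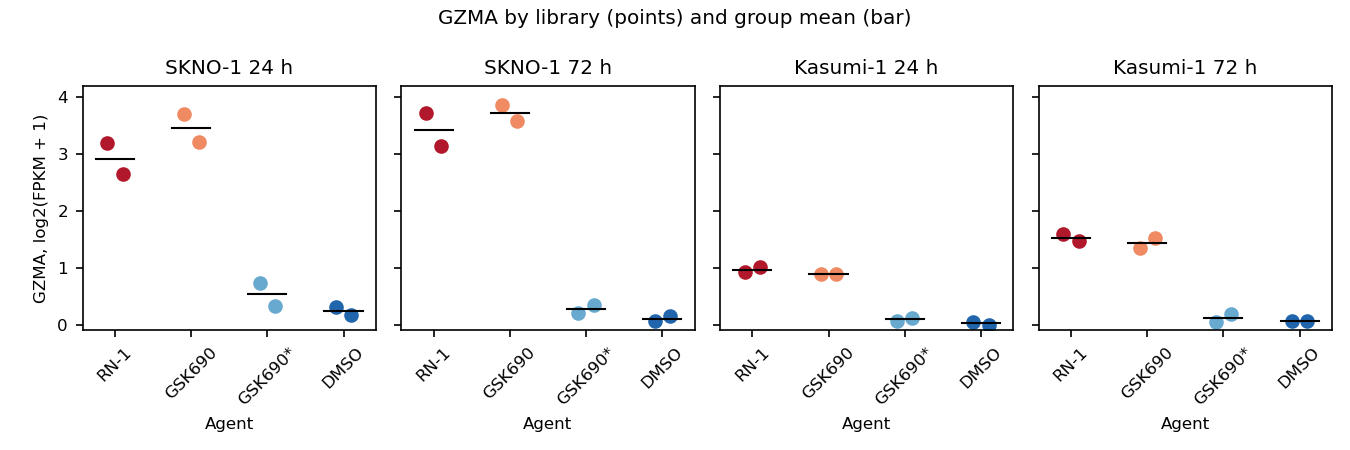
GZMA as log2(FPKM + 1) in each library (points) with the mean of each agent (bars), for each line and time. RN-1 and GSK690 stand above GSK690* and DMSO in all 4 panels, and the distance is larger in SKNO-1 than in Kasumi-1.

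On the log2(FPKM + 1) scale, which understates differences of low genes, the inhibitor minus control difference of GZMA was 2.80 and 3.38 in SKNO-1 at 24 and 72 h and 0.87 and 1.4 in Kasumi-1, each with an SE of 0.13. With a pseudocount of 0.1 in place of 1, the same differences were 4.41 and 5.57 in SKNO-1 and 2.84 and 3.55 in Kasumi-1. Shares and medians over all genes, here and below, are over genes that passed the filter, of which 11862 had no missing value and entered the shares without overlap. The share of all genes whose 4 inhibitor libraries all lay above the 4 control libraries was 6.8% and 8.57% in SKNO-1 and 14.4% and 15.6% in Kasumi-1. The share with all 4 below was 8.37% and 6.68% in SKNO-1 and 18.2% and 13% in Kasumi-1. Past an adjusted p of 0.05 in limma lay 9.08% and 11.1% of all genes in SKNO-1 and 20.9% and 25.7% in Kasumi-1. The members were chosen on this contrast, so their own calls are not given here. Among the 23073 genes of the table, GZMA stood at a median percentile of 69.6 in inhibitor libraries and 48.4 in control libraries of SKNO-1 at 24 h, and of 72.2 and 45.3 in inhibitor and control libraries at 72 h. In Kasumi-1 the percentile was 52.7 in inhibitor and 41.4 in control libraries at 24 h, and 55.7 in inhibitor and 41.4 in control libraries at 72 h.

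Each inhibitor gave the difference against its own control. GSK690 minus GSK690*, the 2 isomers at the same dose, was 2.92 and 3.44 in SKNO-1 at 24 and 72 h and 0.79 and 1.32 in Kasumi-1, and RN-1 minus DMSO was 2.68 and 3.33 in SKNO-1 and 0.95 and 1.47 in Kasumi-1, all with an SE of 0.19. Ordered by mean level, the 8 control groups took the lowest 8 places, with Kasumi-1 DMSO at 24 h lowest (0.0173 FPKM) and SKNO-1 GSK690* at 24 h highest (0.465 FPKM). The 4 Kasumi-1 inhibitor groups followed, with means of 0.851 to 1.90 FPKM, and the 4 SKNO-1 inhibitor groups came last, with means of 6.70 to 12.2 FPKM. Among neighbours in that order, each SKNO-1 inhibitor group overlapped the next in its libraries, and so did both Kasumi-1 inhibitor groups at 72 h.

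Differences between the inhibitors, and between the controls, do not enter the comparison by which the genes were chosen and were tested with limma, with p adjusted over all genes by Benjamini and Hochberg at a threshold of 0.05. RN-1 minus GSK690 for GZMA was -0.54 (95% interval -0.93 to -0.14) in SKNO-1 at 24 h and -0.29 (-0.68 to 0.11) at 72 h. It was 0.08 (-0.31 to 0.47) in Kasumi-1 at 24 h and 0.09 (-0.30 to 0.48) at 72 h. The SKNO-1 value at 24 h had an unadjusted p of 0.00969 and an adjusted p of 0.923 in limma, with both RN-1 libraries below both GSK690 libraries, and did not pass. None of the 4 genes passed in this comparison in any line or time, where the share of genes called was 0% in SKNO-1 at both times and in Kasumi-1 at 24 h, and 0.00841% in Kasumi-1 at 72 h. At an unadjusted p under 0.05 limma had 1 of the 4 (GZMA in SKNO-1 at 24 h), and 613 and 120 genes of the table in SKNO-1 at 24 and 72 h and 86 and 839 in Kasumi-1. The intervals of the other 3 genes ran from -0.67 to 0.47 for NKG7, -1.14 to 1.19 for CST7 and -0.66 to 0.58 for SRGN over the 4 sets, so differences of that size are not shown to be absent.

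GSK690* minus DMSO for GZMA was 0.29 (-0.10 to 0.68) in SKNO-1 at 24 h, 0.17 (-0.22 to 0.57) at 72 h, 0.07 (-0.32 to 0.47) in Kasumi-1 at 24 h and 0.06 (-0.33 to 0.45) at 72 h. All 4 differences were above 0 and all had an adjusted p of 1 in limma. None of the 4 genes passed in any set, at a share of genes called of 0% in each, and none had an unadjusted p under 0.05, as 218 and 268 genes of the table did in SKNO-1 at 24 and 72 h and 305 and 111 in Kasumi-1. In tests of whether these 2 comparisons differed between times or lines, no gene of the 4 passed. The lowest unadjusted p of these was 0.0305, for RN-1 against GSK690 on GZMA at 24 h (SKNO-1 minus Kasumi-1 -0.62, adjusted p = 1 in limma).

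**Figure D3:**
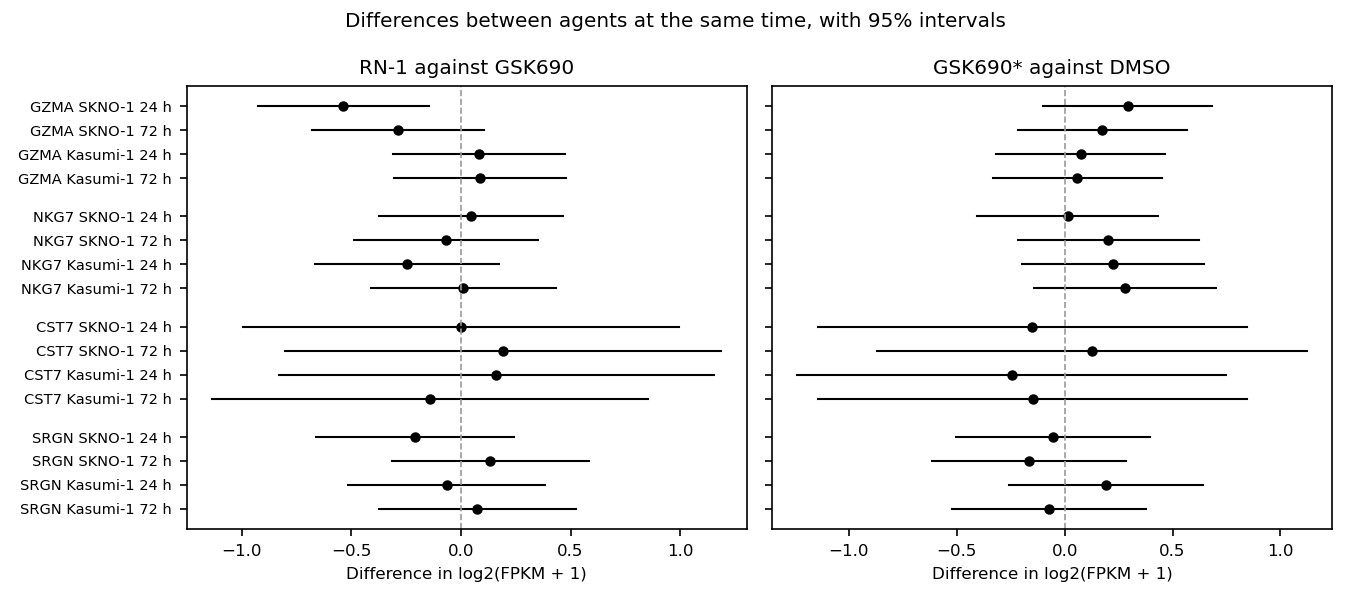
Difference in log2(FPKM + 1) between RN-1 and GSK690 (left) and between GSK690* and DMSO (right) for the 4 genes that entered the fits, in each line and time, with 95% intervals from limma. The interval of GZMA for RN-1 against GSK690 in SKNO-1 at 24 h, from -0.93 to -0.14, is the only interval that does not include 0, and its adjusted p was 0.923.

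Without inhibitor, SKNO-1 control libraries held more GZMA than Kasumi-1 control libraries at 24 h, 0.325 against 0.0442 FPKM on average, a log2 difference of 0.33 (0.05 to 0.61, limma adjusted p = 0.0337). That call did not hold without 1 library in 6 of 8 cases, with adjusted p from 0.0127 to 0.175: it was lost without either Kasumi-1 DMSO or either Kasumi-1 GSK690* library, and without the first SKNO-1 culture of GSK690* or of DMSO. At 72 h the means were 0.145 FPKM in SKNO-1 and 0.0679 FPKM in Kasumi-1, a difference of 0.10 (-0.18 to 0.38, limma adjusted p = 0.523). At 24 h 3 of the 4 genes passed, all higher in SKNO-1, where 69.1% of all genes passed (38.2% higher and 30.9% lower). At 72 h 3 passed, 2 higher and 1 lower in SKNO-1, where 70.8% of all genes passed (38.2% higher and 32.6% lower), so these shares are near those of all genes.

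The other granzymes stayed near 0 in every group. GZMB, the best known apoptosis-inducing granzyme, was listed at 0 in 29 of 32 libraries and reached 0.0545 FPKM at most, in a SKNO-1 DMSO library. The other 2 libraries above 0 were an RN-1 library of SKNO-1 at 72 h and a DMSO library of Kasumi-1 at 24 h, so inhibitor and control libraries are both among the 3. GZMM, which codes for a granzyme that cleaves after methionine and like residues, was above 0 in 26 libraries and reached 0.317 FPKM. Its mean was 0.164 FPKM in inhibitor libraries and 0.0620 FPKM in control libraries of SKNO-1 at 24 h, and the groups overlapped in all 4 sets. GZMK, which lies 68.1 kb from GZMA on the same chromosome and codes for a related tryptase-like granzyme, and GZMH were listed at 0 throughout. In a table without read counts, a listed 0 can also be a failed estimate, and the depth behind it is unknown.

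Within 250 kb of GZMA the annotation places 9 genes with a symbol, of which 4 entered the fits (SKIV2L2, DHX29, CCNO and MCIDAS). SKIV2L2, an RNA helicase of the exosome pathway, fell in Kasumi-1 at 72 h, with a log2 change of -0.32 ± 0.08 (SE, limma adjusted p = 0.0086). The other tests of these 4 genes did not pass without the block. With the replicate block, SKIV2L2 also fell at 24 h in both lines, DHX29 fell in Kasumi-1 at 24 h (-0.20) and CCNO rose in SKNO-1 at 24 h (0.35). Since 9.08% to 25.7% of all genes passed in these sets, nothing particular to the locus is read from 4 genes. The nearest gene, CDC20B, 2.72 kb away, reached 0.0988 FPKM at most, and ESM1 was listed at 0 in all libraries. Near GZMB and GZMH on chromosome 14 lies CTSG, which codes for the neutrophil granule protease cathepsin G and belongs to the same gene cluster. CTSG averaged 115 FPKM in inhibitor and 171 FPKM in control libraries of Kasumi-1 at 24 h and 59.4 FPKM in inhibitor and 103 FPKM in control libraries at 72 h, and it fell at both times (log2 change -0.57 and -0.79, limma adjusted p = 0.044 and 0.005). In SKNO-1 it averaged 7.41 FPKM in inhibitor and 9.39 FPKM in control libraries at 24 h and 9.58 FPKM in inhibitor and 14.0 FPKM in control libraries at 72 h, and did not pass (adjusted p = 0.28 and 0.098), but fell with the replicate block (limma adjusted p = 0.016 and 0.0012). STXBP6, in the same window, fell in Kasumi-1 (-0.46 and -0.77), and NFATC4, near GZMH, rose in SKNO-1 (0.60 and 0.44). Near GZMM, 11 genes were tested, of which PTBP1 fell in Kasumi-1 at 72 h (-0.26) and MIER2 rose in SKNO-1 at 24 h (0.37).

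The pore-forming proteins were near 0. PRF1 was listed at 0 in 28 libraries, and its 4 libraries above 0 were all of SKNO-1. GNLY, which codes for granulysin, a membrane-lysing granule protein, was listed at 0 in 21 libraries and reached 0.117 FPKM. NKG7, which codes for a granule membrane protein of cytotoxic lymphocytes, was detected in all libraries. In Kasumi-1 at 72 h NKG7 had 3.16 and 2.28 FPKM with RN-1 and 2.34 and 3.03 FPKM with GSK690, against 0.860 and 1.29 FPKM with GSK690* and 0.675 and 0.722 FPKM with DMSO. The inhibitor libraries all lay above the control libraries, as in 15.6% of all genes, and the RN-1 and GSK690 libraries overlapped. The mean was 2.70 ± 0.457 FPKM in inhibitor and 0.886 ± 0.279 FPKM in control libraries (SD, n = 4 each), a ratio of 3.05 and a log2 difference of 0.98 ± 0.14 (SE), or 1.53 with a pseudocount of 0.1.

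In Kasumi-1 at 24 h NKG7 had 0.558 and 1.35 FPKM with RN-1 and 1.4 and 1.15 FPKM with GSK690, against 1.08 and 0.566 FPKM with GSK690* and 0.441 and 0.657 FPKM with DMSO. Here the groups overlapped, through the first RN-1 and the first GSK690* culture, and the log2 difference was 0.32 ± 0.14 (SE), or 0.62 with a pseudocount of 0.1. In SKNO-1 all libraries lay between 0.119 and 0.734 FPKM, inhibitor and control libraries overlapped at both times, and the log2 difference was -0.08 and 0.06 at 24 and 72 h, with an SE of 0.14. Without inhibitor NKG7 averaged 0.490 FPKM in SKNO-1 and 0.886 FPKM in Kasumi-1 at 72 h, a difference of -0.34 (-0.64 to -0.04, limma adjusted p = 0.0395). This call was lost in 5 of 8 fits without 1 library, with adjusted p from 0.0199 to 0.169: without either Kasumi-1 DMSO library, the second Kasumi-1 GSK690* library, or the first SKNO-1 culture of GSK690* or of DMSO. At 24 h the difference was -0.16 and did not pass (limma adjusted p = 0.334).

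CST7 had the largest difference between the lines among the 4 genes. Without inhibitor it averaged 39.2 FPKM in SKNO-1 and 1.79 FPKM in Kasumi-1 at 24 h, and 39.1 FPKM in SKNO-1 and 0.807 FPKM in Kasumi-1 at 72 h. The log2 difference was 3.84 ± 0.34 (SE, limma adjusted p = 1.31e-09) and 4.43 ± 0.34 (SE, limma adjusted p = 1.1e-10), with no overlap of the lines. CST7 in SKNO-1 differed by replicate number, in inhibitor and control libraries alike. At 24 h the first cultures had 19.0 FPKM with RN-1 and 15.3 FPKM with GSK690, against 32.5 FPKM with GSK690* and 33.1 FPKM with DMSO, and the second cultures had 44.2 FPKM with RN-1 and 54.6 FPKM with GSK690, against 41.1 FPKM with GSK690* and 49.9 FPKM with DMSO. At 72 h the first cultures had 21.1 FPKM with RN-1 and 16.5 FPKM with GSK690, against 32.5 FPKM with GSK690* and 25.7 FPKM with DMSO, and the second cultures had 43.5 FPKM with RN-1 and 42.1 FPKM with GSK690, against 47.8 FPKM with GSK690* and 50.5 FPKM with DMSO. The second cultures were higher than the first with every agent at both times, the first inhibitor cultures were lowest, and inhibitor and control libraries overlapped. Within the first replicate the log2 difference was -0.90 at 24 h and -0.61 at 72 h, and within the second it was 0.12 and -0.19. The pooled difference was -0.39 and -0.40 in SKNO-1 and -0.11 and -0.19 in Kasumi-1, with an SE of 0.34. In Kasumi-1 CST7 lay between 1.16 and 2.37 FPKM at 24 h and between 0.342 and 0.977 FPKM at 72 h, with overlap at both times.

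SRGN, which codes for the core protein of the granule proteoglycan, was the most abundant of the 10, at 20.0 to 125 FPKM in all 32 libraries. In SKNO-1 at 72 h SRGN had 79.5 and 68.8 FPKM with RN-1 and 68.1 and 66.4 FPKM with GSK690, against 108 and 90.7 FPKM with GSK690* and 125 and 99.1 FPKM with DMSO. Every inhibitor library was below every control library, as in 6.68% of all genes. The mean was 70.7 ± 5.95 FPKM in inhibitor and 106 ± 14.9 FPKM in control libraries (SD, n = 4 each), that is 66.8% of the control mean, and the log2 difference was -0.57 ± 0.15 (SE). In Kasumi-1 at 72 h the inhibitor libraries lay at 20.0 to 22.0 FPKM, all below the control libraries at 24.2 to 28.3 FPKM, as in 13% of all genes. Their mean was 83.4% of the control mean, with a log2 difference of -0.25 ± 0.15 (SE).

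At 24 h SRGN in SKNO-1 had 54.1 and 91.1 FPKM with RN-1 and 59.4 and 111 FPKM with GSK690, against 91.1 and 115 FPKM with GSK690* and 99.0 and 114 FPKM with DMSO. Within each replicate number both inhibitor cultures lay below both control cultures. Across numbers, the second GSK690 culture alone overlapped the controls, since the second RN-1 culture lay just below the lowest of them. The log2 difference was -0.46 ± 0.15 (SE) in all, -0.73 within the first replicate and -0.18 within the second. Without both first inhibitor cultures, which sets the second inhibitor cultures against controls of both numbers, it was -0.05. In Kasumi-1 at 24 h SRGN lay between 33.5 and 43.4 FPKM with no separation (-0.05 ± 0.15, SE). Without inhibitor SRGN was higher in SKNO-1 than in Kasumi-1, 105 against 38.9 FPKM at 24 h and 106 against 25.6 FPKM at 72 h, with log2 differences of 1.4 and 2.0 (SE 0.15, limma adjusted p = 3.97e-08 and 1.13e-10).

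**Figure D4:**
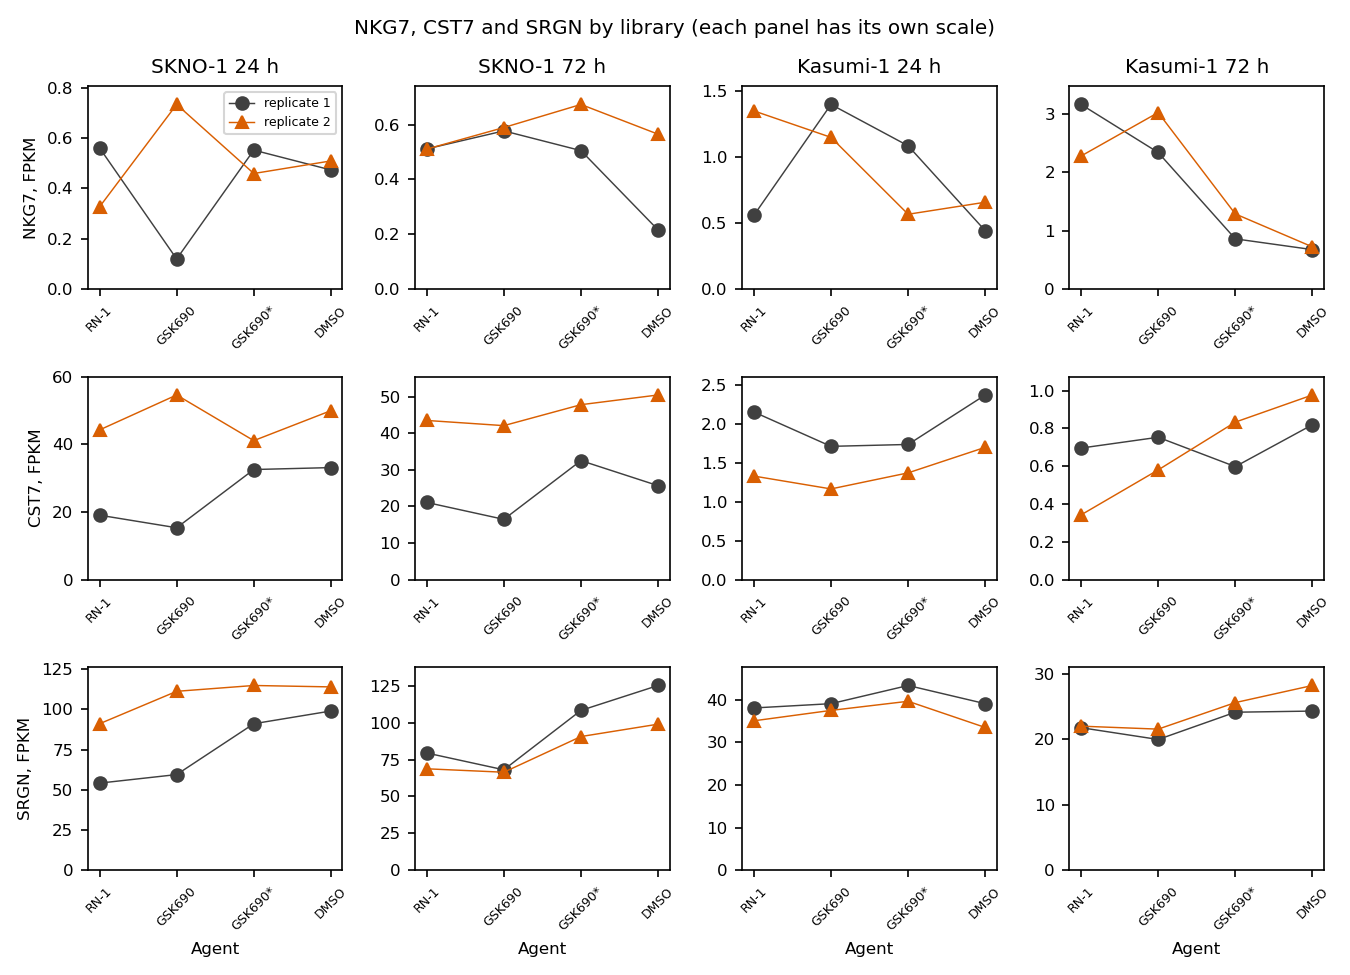
FPKM of NKG7, CST7 and SRGN (rows) by agent in each line and time (columns), with replicate 1 as dark circles and replicate 2 as orange triangles, lines joining libraries of one replicate number, and each panel on its own scale from 0. NKG7 is higher with RN-1 and GSK690 in Kasumi-1 at 72 h, SRGN is lower with them in both lines at 72 h, and replicate 1 is low with them for CST7 and SRGN in SKNO-1 at 24 h.

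CST7 and SRGN were high in the same libraries, those of SKNO-1, and none of the other 3 genes followed GZMA closely. Over the 32 libraries the Pearson r with GZMA on the log2(FPKM + 1) scale was 0.35 for CST7, 0.17 for SRGN and -0.08 for NKG7, a description in which the libraries share lines and agents. It was 0.95 between CST7 and SRGN, -0.65 between NKG7 and CST7 and -0.71 between NKG7 and SRGN. The 8 genes most like GZMA by this measure were CAMSAP2 (0.98), FCGR2B (0.96), KLF10 (0.95), CLEC4A (0.94), ID3 (0.94), RGL1 (0.93), HVCN1 (0.93) and PI4K2A (0.93). CAMSAP2 codes for a microtubule minus-end protein, FCGR2B for the inhibitory Fc receptor of B and myeloid cells, KLF10 for a TGF-beta-inducible transcription factor, CLEC4A for a C-type lectin of dendritic cells and monocytes, ID3 for an inhibitor of helix-loop-helix factors and HVCN1 for a voltage-gated proton channel. CAMSAP2 averaged 4.76 FPKM in inhibitor and 0.427 FPKM in control libraries of SKNO-1 at 24 h, and 1.03 FPKM in inhibitor and 0.135 FPKM in control libraries of Kasumi-1 at 24 h. FCGR2B, whose reads its near-identical copy FCGR2C may share, averaged 29.4 FPKM in inhibitor and 1.01 FPKM in control libraries of SKNO-1 at 72 h, and 1.37 FPKM in inhibitor and 0.110 FPKM in control libraries of Kasumi-1 at 72 h. All 8 rose with the inhibitors in SKNO-1 at both times, and 6 of the 8 did so in Kasumi-1 at 24 h and 7 at 72 h (limma). CLEC4A did not pass in Kasumi-1 at either time (log2 change 0.01 and 0.50), and RGL1 did not at 24 h (0.81, adjusted p = 0.11, and 0.0055 with the replicate block). These genes were picked for their likeness over the same libraries, so that count is a description. CAMSAP2 and CLEC4A reached 1 FPKM in 12 and 8 inhibitor libraries and 0 control libraries.

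Companion genes, in 12 lists of 125 genes, were read in the fit over all genes. The lists hold granule pathway genes, lymphocyte effectors, transcription factors of cytotoxic lymphocytes, and markers of cell types and of the leukaemia. Counts over all lists are therefore not counts of the granule pathway. EXT1 and LTB passed the filter through inhibitor libraries and are kept in the counts. Of the 77 tested, 17 rose with the inhibitors and 4 fell in the SKNO-1 cultures of 24 h, beside 5.64% and 3.44% of all genes tested. In the SKNO-1 cultures of 72 h, 23 rose and 4 fell, beside 6.91% and 4.16% of all genes. In the Kasumi-1 cultures 16 rose and 3 fell at 24 h, beside 9.69% and 11.2% of all genes, and 23 rose and 8 fell at 72 h, beside 13% and 12.7%. The median log2 change of the 77 was 0.11 and 0.06 in SKNO-1 and 0.09 and 0.08 in Kasumi-1, and that of all genes was -0.02 and -0.02 in SKNO-1 and -0.01 and -0.02 in Kasumi-1. With the replicate number as a block, the rises numbered 27 and the falls 9 in SKNO-1 at 24 h, and the falls 10 in SKNO-1 at 72 h and 6 in Kasumi-1 at 24 h. The block added calls and removed none. Of genes named below, it added a rise of TNF and FCGR1A in Kasumi-1 at 24 h, of CPA3, LTB and TOX in SKNO-1 at 24 h, of XYLT1 and CSF1R in SKNO-1 at 72 h and of CD8A in both lines at 24 h. It added a fall of SERPINA1 in SKNO-1 at 24 h, KIT in SKNO-1 at 72 h and CCL5 in Kasumi-1 at 24 h. The SKNO-1 counts at 24 h changed when single libraries were left out: 9 rose and 0 fell without the first RN-1 culture, 8 and 0 without the first GSK690 culture, and 9 and 0 without the second GSK690* culture. The count that fell there was also 0 without the second DMSO culture, 1 without the first GSK690* or DMSO culture, and 10 without the second GSK690 culture. In Kasumi-1 at 24 h the count that fell was 1 in 6 of 8 fits without 1 library, all but those without the second GSK690* or the second DMSO culture.

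Granule exocytosis genes moved little: of 13 tested, 1 rose and 1 fell in SKNO-1 at each time, 0 and 0 in Kasumi-1 at 24 h and 0 and 1 at 72 h, with median log2 changes of -0.08 to 0.03 beside -0.02 to -0.01 over all genes. RAB27A, the small GTPase that docks lytic granules, averaged 10.5 FPKM in inhibitor and 15.8 FPKM in control libraries of SKNO-1 at 72 h and fell there (-0.55, limma adjusted p = 0.0065), as it did in SKNO-1 at 24 h (-0.53) and Kasumi-1 at 72 h (-0.36). In Kasumi-1 at 24 h its log2 change was -0.36 with an adjusted p of 0.052, and of 0.0086 with the replicate block in limma. STX11, a syntaxin of granule fusion, averaged 1.78 FPKM in inhibitor and 1.14 FPKM in control libraries of SKNO-1 at 72 h and rose at both times in SKNO-1 (0.34 and 0.37). With the replicate block alone, LYST rose in SKNO-1 at both times (0.34 and 0.40). VAMP8 fell with the block alone in Kasumi-1 at both times (-0.23 and -0.18) and in SKNO-1 at 72 h (-0.22).

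Of 9 cathepsins tested, which are not all enzymes that process granule proteases, 3 rose in SKNO-1 at both times and 2 in Kasumi-1 at both times. CTSS, a lysosomal cysteine protease of antigen presentation, rose in all 4 sets and averaged 54.9 FPKM in inhibitor and 20.8 FPKM in control libraries of Kasumi-1 at 24 h. CTSB rose in all 4 sets (0.38 to 0.72), and CTSH rose in SKNO-1 (0.73 and 0.95). CTSC, which activates granzymes, was abundant in all libraries at 151 to 288 FPKM, fell by 0.26 in SKNO-1 at 72 h and by 0.17 in Kasumi-1 at 24 h on the log2 scale, and did not pass in the other 2 sets, of which SKNO-1 at 24 h passed with the replicate block (-0.17, limma adjusted p = 0.024).

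Of 9 serpins and cystatins tested, which are not all inhibitors of granule proteases, 1 and 2 rose in SKNO-1 at 24 and 72 h, and 3 and 4 in Kasumi-1. SERPINB8 averaged 2.34 FPKM in inhibitor and 0.168 FPKM in control libraries of SKNO-1 at 72 h and 32.5 FPKM in inhibitor and 5.91 FPKM in control libraries of Kasumi-1 at 72 h, with log2 changes of 1.04, 1.51, 2.22 and 2.30 over the 4 sets (largest limma adjusted p = 2.1e-07). SERPINB9, which codes for the granzyme B inhibitor, averaged 5.34 FPKM in inhibitor and 3.41 FPKM in control libraries of SKNO-1 at 72 h and rose there (0.54), and likewise in Kasumi-1 (0.55 at 24 h, 0.74 at 72 h). In SKNO-1 at 24 h its log2 change was 0.36 with an adjusted p of 0.16, and of 0.0021 with the replicate block in limma. SERPINA1, alpha-1-antitrypsin, fell in both lines at 72 h (-0.58 in SKNO-1 and -1.03 in Kasumi-1).

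Serine proteases of myeloid granules and related genes, 10 tested, are counted here without the replicate block. Of these, 3 rose and 0 fell in SKNO-1 at each time, 0 rose and 1 fell in Kasumi-1 at 24 h, and 1 rose and 2 fell at 72 h. The tryptases TPSAB1, TPSB2 and TPSD1, which are near-identical copies whose reads may be shared, rose in SKNO-1 at both times, and TPSB2 averaged 9.27 FPKM in inhibitor and 3.59 FPKM in control libraries at 72 h. In Kasumi-1 TPSB2 rose at 72 h (0.96), and CTSG and PRTN3, proteases of neutrophil granules, fell there (-0.79 and -1.28). In SKNO-1 PRTN3 had log2 changes of -0.57 and -0.86 and passed with the replicate block alone (limma adjusted p = 0.041 and 0.0030). ELANE, which codes for neutrophil elastase, had log2 changes of -0.67 in SKNO-1 and -0.72 in Kasumi-1 at 72 h. It too passed with the replicate block alone (limma adjusted p = 0.031 and 0.014). PRTN3 averaged 92.6 FPKM in inhibitor and 222 FPKM in control libraries of Kasumi-1 at 72 h.

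Genes of glycosaminoglycan synthesis, which build the chains on serglycin, gave 0 and 1 of 13 that rose in SKNO-1 at 24 and 72 h, and 4 and 5 of 13 in Kasumi-1, with none that fell. EXT1, a heparan sulfate polymerase, averaged 2.26 FPKM in inhibitor and 0.823 FPKM in control libraries of Kasumi-1 at 72 h (log2 change 0.84) and was at or near 0 in SKNO-1. It reached 1 FPKM in 8 inhibitor libraries and 1 control library, so it too passed the filter through the group where it is high. XYLT1 (0.50 and 0.61) and CSGALNACT2 (0.32 and 0.43), which start and extend the chains, rose in Kasumi-1 at both times.

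Of 11 effector genes of lymphocytes, 4 were tested, and IFNG and FASLG were not among them. TNFSF10, which codes for the death ligand TRAIL, rose in all 4 sets and averaged 17.3 FPKM in inhibitor and 6.51 FPKM in control libraries of SKNO-1 at 72 h, and 5.89 FPKM in inhibitor and 1.16 FPKM in control libraries of Kasumi-1 at 72 h. TNF rose in SKNO-1 at both times (0.96 and 1.44) and in Kasumi-1 at 72 h (1.5), and LTB was higher in inhibitor libraries of both lines at 72 h (0.55 in SKNO-1 and 1.04 in Kasumi-1). LTB reached 1 FPKM in 6 inhibitor and 0 control libraries, so it passed the filter through the group where it is high. Its rises at 72 h are part of the counts over the companion lists, and no support is drawn from them. CCL5 fell in Kasumi-1 at 72 h (-0.83). Of 14 transcription factors of cytotoxic lymphocytes 7 were tested. TBX21 and EOMES, which drive granzyme genes in lymphocytes, reached 0.117 and 0.450 FPKM at most. NFIL3, needed for natural killer cell development, rose in all 4 sets (0.28 to 0.63), and ID2 rose in SKNO-1 (0.85 and 0.80) and in Kasumi-1 at 72 h (0.57). TOX rose in SKNO-1 at 72 h (0.37) and in Kasumi-1 (0.34 and 0.49). BATF fell in SKNO-1 (-0.39 and -0.59), and ZEB2 fell in SKNO-1 at 24 h (-0.34) and in Kasumi-1 at 72 h (-0.46).

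**Figure D5:**
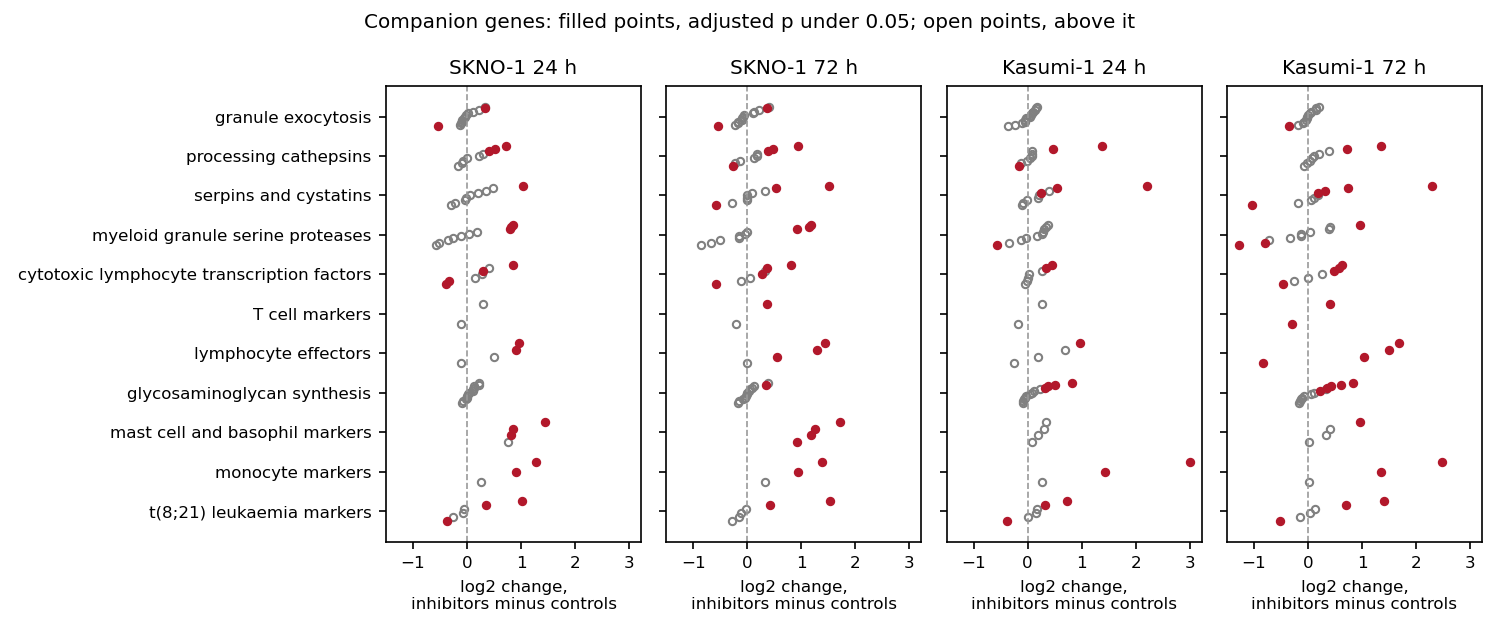
Log2 change, inhibitors minus controls, of each tested companion gene (points) by list (rows) in each line and time, with filled points for a limma adjusted p under 0.05. CTSS, SERPINB8, TNFSF10 and LYZ are among the filled points on the right, and exocytosis genes lie close to 0. The list of natural killer cell markers has no row because none of its 9 genes was tested.

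Of 11 T cell markers, 9 stayed under 1 FPKM in all libraries, with maxima of 0.306, 0.472 and 0.0139 FPKM for CD3D, CD3E and CD3G, the chains that define T cells. CD8A and CD247 reached 2.04 and 1.85 FPKM, levels like those of GZMA in the Kasumi-1 inhibitor libraries. CD8A averaged 1.66 FPKM in inhibitor and 1.21 FPKM in control libraries of Kasumi-1 at 24 h. The sum of the 11 was 1.94 to 2.46 FPKM in inhibitor and 1.34 to 2.01 FPKM in control libraries of SKNO-1 at 24 h, 2.20 to 2.82 FPKM in inhibitor and 1.39 to 2.54 FPKM in control libraries at 72 h, and 2.41 to 3.67 FPKM in inhibitor and 2.22 to 3.23 FPKM in control libraries of Kasumi-1 over both times. CD8A rose in both lines at 72 h (0.37 in SKNO-1 and 0.41 in Kasumi-1), and CD247 fell in Kasumi-1 at 72 h (-0.29). Their part in the difference of GZMA was not tested. All 9 natural killer cell markers stayed under 1 FPKM, with KLRD1 and SH2D1B listed at 0 in all libraries and a sum between 0.214 and 0.893 FPKM.

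Some markers of other myeloid cells were also higher in the inhibitor libraries. In SKNO-1 at 72 h, 7 markers of mast cells and basophils summed to 40.2 to 63.3 FPKM in inhibitor and 10.7 to 26.4 FPKM in control libraries, and all 4 tested rose. FCER1A, the high-affinity IgE receptor chain, averaged 6.65 FPKM in inhibitor and 1.29 FPKM in control libraries (1.72), and CPA3 29.6 FPKM in inhibitor and 12.4 FPKM in control libraries (1.26). At 24 h 3 of the 4 rose in SKNO-1. In Kasumi-1 at 72 h the same markers summed to 2.17 to 3.22 FPKM in inhibitor and 0.473 to 0.956 FPKM in control libraries. Of the 4 tested, only TPSB2 rose in Kasumi-1 at 72 h, and 0 rose at 24 h. At 72 h TPSB2 averaged 1.84 FPKM in inhibitor and 0.459 FPKM in control libraries of Kasumi-1, and CPA3 0.0282 and 0.0151 FPKM. Monocyte markers, 5 genes, summed to 144 to 188 FPKM in inhibitor and 52.4 to 76.6 FPKM in control libraries of SKNO-1 at 72 h, and to 84.8 to 116 FPKM in inhibitor and 35.5 to 45.5 FPKM in control libraries of Kasumi-1 at 72 h. LYZ, lysozyme, rose in all 4 sets (1.27 and 1.39 in SKNO-1, 3.01 and 2.48 in Kasumi-1) and averaged 125 FPKM in inhibitor and 47.4 FPKM in control libraries of SKNO-1 at 72 h. With 67.7 FPKM in inhibitor libraries of Kasumi-1 at 72 h, LYZ made up most of the sum in inhibitor libraries of both lines. FCGR1A, a high-affinity IgG receptor whose near-identical copies may share its reads, rose in SKNO-1 (0.91 and 0.94), and CSF1R, the receptor of macrophage colony-stimulating factor, rose in Kasumi-1 (1.43 and 1.36). In Kasumi-1 at 72 h FCGR1A averaged 25 FPKM in inhibitor and 24.6 FPKM in control libraries. CD14 reached 0.262 FPKM at most. The part of these changes in the difference of GZMA was not tested.

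Of 6 markers of the leukaemia, RUNX1T1 lay at 21.2 to 53.5 FPKM, MPO at 1218 to 6612 FPKM, KIT at 56.2 to 319 FPKM and CD33 at 18.1 to 106 FPKM in all 32 libraries. POU4F1 was low, at 0.0912 to 2.10 FPKM and under 1 FPKM in 18 libraries. CD34 averaged 0.172 and 0.477 FPKM in SKNO-1 control libraries at 24 and 72 h and 76.5 and 83.9 FPKM in Kasumi-1, so this stem and progenitor marker was low in SKNO-1 without inhibitor. Of these 6 markers, CD34 and CD33 rose with the inhibitors in all 4 sets, and KIT fell in SKNO-1 at 24 h and in Kasumi-1 at both times (limma). RUNX1T1, MPO and POU4F1 did not pass in any set. Read counts were not used here, so depth is unknown. The names of the 24 h libraries start differently from those of the 72 h libraries, so time cannot be told apart from that series. In SKNO-1 at 72 h the first RN-1 and first DMSO libraries carry another name prefix than the other 6.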

How the data were processed

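RNA was sequenced in 32 cultures of SKNO-1 and Kasumi-1 cells. The authors deposited FPKM per gene and library with a table of gene symbols and hg19 loci. The submitters' processing notes name TopHat 1.4.1, Cufflinks and hg19 without their roles, and the annotation release, library type and strand setting are not given in the sources used here. Overlapping and antisense genes can therefore share reads. Read counts were not used. Depth is therefore unknown for every library, and counting intervals were not computed. Lines were taken from the labels' titles, since the deposited sample table swaps SKNO-1 and Kasumi-1 in the 16 libraries of 72 h. Missing values (102 cells in 30 genes) were left missing, and 0 further columns of values went unused.

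Values were taken as log2(FPKM + 1), without further scaling. The 11890 genes that reached 1 FPKM in 2 or more libraries entered a limma fit (version 3.58.1, R version 4.3.3) of 16 group means with a variance trend (16 residual and 5.23 prior degrees of freedom), 2-sided tests and p adjusted by Benjamini and Hochberg over all genes, at 0.05. The inhibitor contrast is the mean of RN-1 and GSK690 minus the mean of GSK690* and DMSO. Comparisons with shared libraries are not independent. The script was tested on simulated data. Figures were drawn with matplotlib 3.10.9, and tables made with numpy 2.4.6 and pandas 2.3.3 (Python 3.11.15).

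The members, lists and tests were chosen with earlier results of these data known. Genes named are the 10 members, up to 3 genes per list, by size of change among those past the threshold, the 8 genes with the highest Pearson r with GZMA, and tested genes within 250 kb of a granzyme. CTSC, TPSAB1, CCL5, ZEB2, TBX21, EOMES, IFNG, FASLG, CD14, RUNX1T1, MPO, POU4F1, ELANE, LYST, VAMP8, CD3D, CD3E, CD3G, KLRD1, SH2D1B, ESM1 and CDC20B fall outside that rule and were named after their values were seen.

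Alternatives were a pseudocount of 0.1, no filter, scaling by the median of ratios, quantile normalization, a fit on each set alone, a replicate block, DMSO as the only control, a term for the library name prefix, and each library left out. A fit without both first inhibitor cultures of SKNO-1 at 24 h was added after the data were seen. To check whether replicate numbers pair the cultures, the difference between replicates was correlated over genes between agents: r was 0.294 to 0.525 in SKNO-1 at 24 h, 0.145 to 0.697 at 72 h, 0.133 to 0.450 in Kasumi-1 at 24 h and 0.0432 to 0.481 at 72 h, so the numbers were taken as pairing in all but the last. The main fit does not use this pairing. Its SEs, intervals and adjusted p ignore it, and only results given with the replicate block take it up. The block was fitted in every set, Kasumi-1 at 72 h included. Promoter sequences are from RefSeq, GRCh38.p14, a different build from the hg19 loci, and were matched by symbol.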

Additional observations from a re-analysis of the deposited data

Results flagged for a closer look

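GZMA in the second GSK690* culture of Kasumi-1 at 72 h, at 0.144 FPKM, stood apart from the other control libraries of that line and time, which had 0.0365 FPKM with GSK690* and 0.0486 and 0.0423 FPKM with DMSO. Its gap to the nearest was 0.888 of the range of the 4, above the 95% critical value of Dixon's test for 4 values. It was the only such value in 32 groups of 4 libraries, and chance gives about 1 in 20. The inhibitor libraries there had 1.56 to 2.02 FPKM.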

How the results depend on the processing

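The inhibitor difference of GZMA was above 0 in each line and time under every alternative run. It moved beyond the spread between replicates with a pseudocount of 0.1 (4.41 and 5.57 in SKNO-1 at 24 and 72 h, 2.84 and 3.55 in Kasumi-1), with quantile normalization in Kasumi-1 (0.83 and 1.29 at 24 and 72 h), and in Kasumi-1 at 24 h with the median of ratios (0.95) and with DMSO as the only control (0.90). With a pseudocount of 0.1 the inhibitor difference was also larger for NKG7 (-0.33 and 0.21 in SKNO-1 at 24 and 72 h, 0.62 and 1.53 in Kasumi-1) and for CST7 in Kasumi-1 at 72 h (-0.41).

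The difference between the lines without inhibitor lost its call for GZMA at 24 h without the filter (adjusted p = 0.0734 in limma) and with DMSO only (0.22, adjusted p = 0.334), and ranged from 0.23 to 0.43 without 1 library. For NKG7 at 72 h it lost its call without the filter (adjusted p = 0.0867), with DMSO only (-0.30) and with the prefix term (-0.48), and ranged from -0.43 to -0.25.

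Differences with adjusted p near 1 changed sign. RN-1 minus GSK690 became -0.023 for NKG7 in Kasumi-1 at 72 h (median of ratios). In SKNO-1 at 24 h it became 0.0049, 0.060 and 0.037 for CST7 (pseudocount 0.1, quantile normalization, median of ratios), and -0.0076 and -0.39 for NKG7 (quantile normalization, without both first inhibitor cultures). With the prefix term in SKNO-1 at 72 h it became 0.024 for NKG7 and -0.00092 for SRGN, and GSK690* minus DMSO became -0.36 for CST7. Without 1 library, RN-1 minus GSK690 ranged from -0.056 to 0.38 for CST7 and -0.54 to 0.050 for NKG7 in Kasumi-1 at 24 h, and from -0.31 to 0.027 for CST7 and -0.16 to 0.18 for NKG7 at 72 h. In SKNO-1 at 24 h it ranged from -0.88 to 0.88 for CST7, -0.27 to 0.36 for NKG7 and -0.66 to 0.24 for SRGN, and at 72 h from -0.46 to 0.84 for CST7 and -0.58 to 0.0082 for GZMA. GSK690* minus DMSO ranged in Kasumi-1 at 72 h from -0.18 to 0.031 for SRGN and -0.012 to 0.13 for GZMA, in SKNO-1 at 24 h from -0.44 to 0.14 for CST7, -0.031 to 0.058 for NKG7 and -0.22 to 0.11 for SRGN, and at 72 h from -0.35 to 0.60 for CST7 and -0.34 to 0.0011 for SRGN.

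Companion genes that rose numbered 5, 15 and 26 in a fit on the set alone in SKNO-1 at 24 h, SKNO-1 at 72 h and Kasumi-1 at 24 h, 27 with the replicate block in SKNO-1 at 24 h, and 4 there without both first inhibitor cultures. Those that fell in SKNO-1 at 24 h numbered 1 without the filter, 2 with quantile normalization, 1 with the median of ratios, 0 on the set alone, 9 with the replicate block, 2 with DMSO only and 0 without both first inhibitor cultures. In SKNO-1 at 72 h 1 fell on the set alone and 10 with the block. In Kasumi-1 at 24 h 1 fell with the median of ratios, 5 on the set alone, 6 with the block and 0 with DMSO only. Without 1 library, 8 to 24 rose and 0 to 10 fell in SKNO-1 at 24 h, and 1 to 3 fell in Kasumi-1 at 24 h. Among single companion genes the replicate block added 15 and 11 calls in SKNO-1 at 24 and 72 h and 7 and 5 in Kasumi-1, and removed none. It changed no call of the members between RN-1 and GSK690, between GSK690* and DMSO or between the lines. For the inhibitor contrast, calls of the members with the block are not reported here. The cause of these shifts was not tested. The unknown depth leaves the precision of values near 0 unknown. With 2 cultures a group, p-values rest on a spread between cultures that is pooled per gene over all 16 groups and moderated by the trend. It is not the spread of the compared cultures alone. For GZMA the SE was thus 0.19 for GSK690* minus DMSO as for RN-1 minus GSK690.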
